A study of Danio rerio with 20 samples.

Results

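The genes described here act in purine metabolism. They are the 65 gene identifiers that the study's pathway table gives under purine metabolism and does not also give under pyrimidine metabolism, glycolysis, pyruvate metabolism or the pentose phosphate cycle. The count table holds 32512 genes, and all 65 members were found in it. RNA was sequenced from whole zebrafish larvae at 5 days post fertilization, kept in cycles of 12 h light and 12 h dark and collected at *Zeitgeber* times ZT3, ZT9, ZT15 and ZT21 (hours after lights on). Each of the 20 libraries was made from a pool of 30 larvae. There was 1 library per group and time point, so the 4 time points stand in for replicates. The tests of level took the time point as a factor, so their error measures how much the differences between groups varied from time point to time point.

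There were 5 groups. The *rx3 strong* group was homozygous for rx3t25327, which leaves larvae without eyes and with few corticotrope cells, the pituitary cells that drive cortisol production, so that cortisol is low and shows no daily rhythm. The *rx3 weak* group was homozygous for rx3t25181, which also leaves larvae without eyes but with normal cortisol, and serves as the control for the missing eyes. The WT group consisted of wild-type siblings. These 3 groups were untreated per the labels, although their columns and the methods name the solvent DMSO. The *rx3 strong* + DEX and WT + DEX groups were the same genotypes kept in 25 µM dexamethasone (DEX), a synthetic glucocorticoid given at a constant dose. The labels give all larvae a mixed TU, AB and WIK background, while the methods name AB. Per the labels the DEX libraries were made with a different library kit, while the methods name 1 kit, and, if the labels hold, an effect of DEX and an effect of the kit cannot be told apart. Levels with and without DEX were therefore not compared directly.

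Purines are built in 2 ways. De novo synthesis assembles the purine ring on phosphoribosyl pyrophosphate, with glutamine as a nitrogen source, and ends in inosine monophosphate (IMP), from which separate branches lead to guanine and to adenine nucleotides. Salvage enzymes instead return free bases and nucleosides to the nucleotide pool, and degradation leads over xanthine to urate and, in fish, further. In fish, guanine also forms the reflecting crystals of iridophores, a pigment cell. By role, the 65 members comprise 6 genes of de novo IMP synthesis, 7 of the guanine branch, 3 of the adenine branch, 11 of salvage and nucleoside phosphorylation, 7 deaminases of AMP and adenosine, 8 adenylate kinases, 8 genes of guanine and urate degradation, 11 nucleotide hydrolases, 3 synthases of the sulfate donor PAPS, and 1 gene that was not placed.

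Levels are given in CPM, counts relative to the library's total as scaled by edgeR's TMM factors separately within the 12 untreated and the 8 DEX libraries. Differences are log2 fold changes from edgeR's quasi-likelihood test with the time point as a factor, and p-values are adjusted over all genes tested by the Benjamini-Hochberg method. Library totals were 16427280 to 22204708 counts without DEX and 12586879 to 49738048 with DEX, the lowest in WT + DEX at ZT3. The filter on low counts left 63 members in the untreated fits and 64 in the DEX fit. A *dguok* copy (ENSDARG00000051983), a deoxyguanosine kinase gene, passed in neither, and CABZ01117575.1 did not pass without DEX. Eye markers were lower in both mutants: 8 of 12 listed eye genes were matched, and their summed level was 12.03 to 14.91 CPM in *rx3 strong* and 79.16 to 186.8 CPM in *rx3 weak*, against 2030 to 2715 CPM in WT. Of 5 matched skeletal muscle markers, 5 were higher in *rx3 strong* and 4 in *rx3 weak* than in WT, and of 7 liver markers 4 were higher in *rx3 strong* and 3 in *rx3 weak*. Of 7 listed glucocorticoid response genes, 5 were matched, and of these 3 were lower and 1 was higher in *rx3 strong* than in WT. Among them, *fkbp5* was lower (log2 fold change -2.92, adjusted p = 2.1e-07) and *tat* higher (0.54, adjusted p = 0.00523). In bulk RNA, fewer cells of a type and less RNA per cell cannot be told apart.

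Purine genes differed between *rx3 strong* and WT in both directions. Of the 63 members tested, 23 had an adjusted p under 0.05, 9 of them higher and 14 lower in *rx3 strong*, against a background of 19.2% of all genes (8.66% higher and 10.5% lower). The median log2 fold change of the members was -0.04, and that of all genes tested was 0.01. All 23 differed in 1 direction at all 4 time points. The test favours such genes, since its error is the spread of the difference between time points, so this is not separate support. In 16 members the libraries of *rx3 strong* and WT did not overlap, which was so for 15.1% of all genes. Of the 9 that rose, 4 were genes of IMP synthesis, where 4 of 6 rose and 0 fell, and 2 were of the guanine branch. Of the 14 that fell, 4 were in the guanine branch, 3 each among the deaminases and in salvage, 2 among the PAPS synthases, and 1 each in the adenine branch (*adssl*) and in degradation (*gda*), while 0 of 11 nucleotide hydrolases passed the test in either direction.

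**Figure D1:**
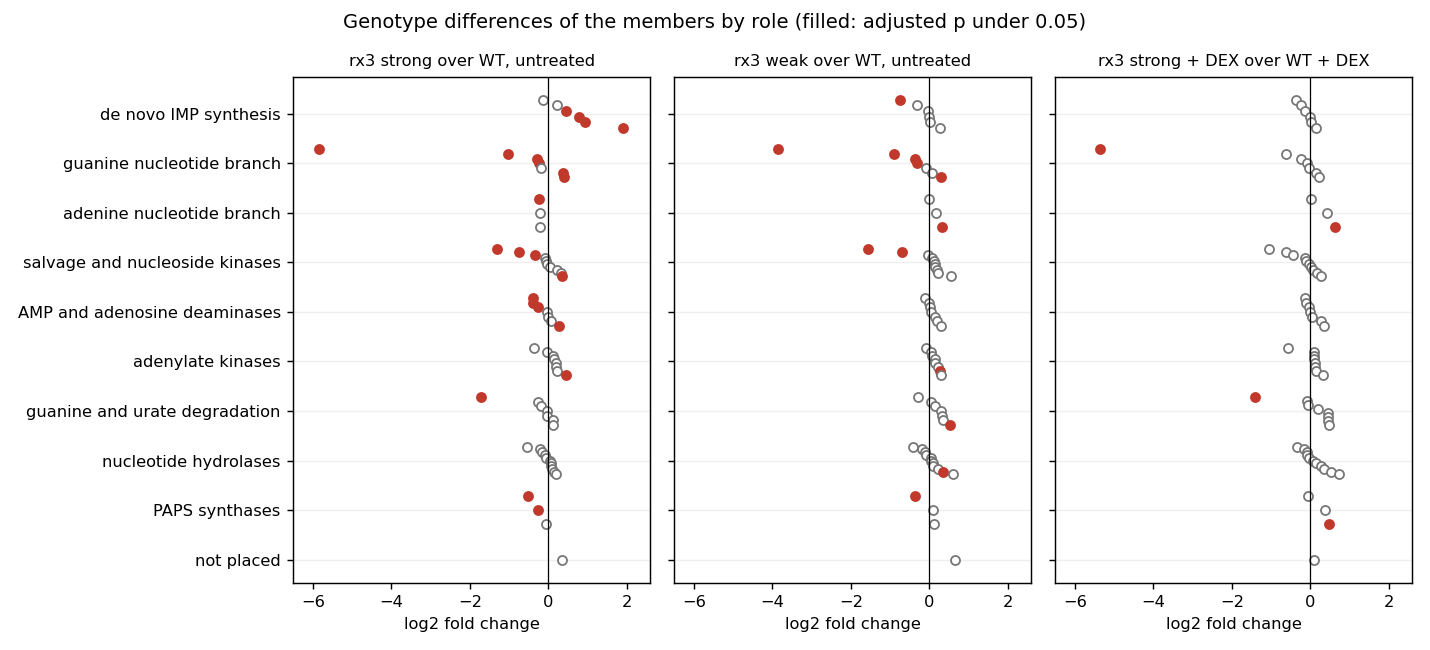
Log2 fold change of each tested member, grouped by role (rows), for *rx3 strong* over WT, *rx3 weak* over WT, and *rx3 strong* + DEX over WT + DEX; each point is 1 gene, and filled points had an adjusted p under 0.05. The 4 filled points of IMP synthesis lie between 0.45 and 1.91 in the left panel, 1 filled point lies at -0.76 in the middle panel, and none is filled in the right panel, while *guk1b* stays far to the left in all 3.

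Of the 6 genes of de novo IMP synthesis, *paics*, *atic*, *gart* and *ppat* rose in *rx3 strong* relative to WT, with a median of 0.61 on the log2 scale over the 6 genes of the role. The gene *paics* encodes a bifunctional enzyme of the middle of the pathway. Its level was 391.9, 404, 406 and 483 CPM at ZT3, ZT9, ZT15 and ZT21 in *rx3 strong*, 99.3, 63.5, 55.2 and 58.5 CPM in *rx3 weak*, and 161, 149, 94.8 and 68.0 CPM in WT. Every *rx3 strong* library was above every other untreated library, and the *rx3 strong* level was 2.44 to 7.10 times that of WT at the same time point. The log2 fold change of *rx3 strong* over WT was 1.91 ± 0.18 (SE; adjusted p = 2.17e-07). The gene fell in *rx3 weak*, by 0.76 relative to WT (adjusted p = 0.00588), a call that was lost without ZT9 (log2 fold change -0.58). The 2 eyeless mutants therefore lay on opposite sides of WT, and *rx3 strong* exceeded *rx3 weak* by 2.67 ± 0.18 on the log2 scale (SE; adjusted p = 8.46e-09).

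The gene *gart* encodes a trifunctional enzyme of early and middle steps. It had 62.8, 57.0, 58.2 and 65.8 CPM in *rx3 strong*, 45.4, 34.8, 30.3 and 33.0 CPM in *rx3 weak*, and 46.9, 34.4, 30.3 and 33.2 CPM in WT. The *rx3 weak* level was 0.968 to 1.01 times that of WT at the same time point, while all *rx3 strong* libraries stood above both. The log2 fold change over WT was 0.77 ± 0.09 in *rx3 strong* (SE; adjusted p = 6.02e-06) and -0.01 in *rx3 weak* (adjusted p = 0.962).

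The gene *atic* encodes the enzyme of the last steps to IMP. Its level was 44.8, 45.4, 37.3 and 40.6 CPM in *rx3 strong*, 30.3, 19.9, 11.4 and 14.2 CPM in *rx3 weak*, and 34.6, 26.5, 15.97 and 16.6 CPM in WT. The groups were closest at ZT3 and furthest apart in the dark, where WT and *rx3 weak* were at their lowest. The log2 fold change of *rx3 strong* over WT was 0.92 ± 0.14 (SE; adjusted p = 7.98e-05), and over *rx3 weak* it was 1.24 ± 0.14 (SE; adjusted p = 5.74e-06).

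The gene *ppat* encodes the amidotransferase of the committed first step, which takes its nitrogen from glutamine. It had 24.1, 21.03, 21.1 and 30.4 CPM in *rx3 strong*, 20.7, 14.8, 16.1 and 20.5 CPM in *rx3 weak*, and 21.6, 18.1, 13.3 and 17.8 CPM in WT. The *rx3 strong* and WT libraries overlapped, but *rx3 strong* was the higher at each of the 4 time points (log2 fold change 0.45, adjusted p = 0.00728). The call was lost without ZT15 (0.37) or without ZT21 (0.34).

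The remaining 2 genes did not pass the test against WT. For *pfas*, which uses a further glutamine, the log2 fold change was 0.22 in *rx3 strong* (adjusted p = 0.146), with 40.2, 37.4, 29.3 and 36.4 CPM in *rx3 strong* and 40.1, 33.2, 20.4 and 31.9 CPM in WT. For *adsl*, whose enzyme serves both IMP synthesis and the adenine branch, it was -0.14 (adjusted p = 0.333). Against *rx3 weak*, *adsl* was lower in *rx3 strong* (-0.40, adjusted p = 0.00522), opposite in sign to the other IMP synthesis genes that passed this test, and the call was lost without ZT3 (-0.31). Beside these levels, summed skeletal muscle markers were 27720 to 31750 CPM in *rx3 strong* and 20260 to 20850 CPM in WT. Summed liver markers were 4964 to 5893 and 3261 to 4341 CPM in the same order, with *apoa1a* at 1601 to 1942 and 603 to 1420 CPM. The paper also shows *apoa1* in the brain of embryos, expanded in *rx3 strong* only. Of the 7 liver markers 4 were higher, while *fabp10a*, *fetub* and *serpina1* did not pass the test. Of 8 proliferation markers, 0 were higher in *rx3 strong* (1 was lower). The part of muscle, liver or dividing cells in the result was not tested.

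**Figure D2:**
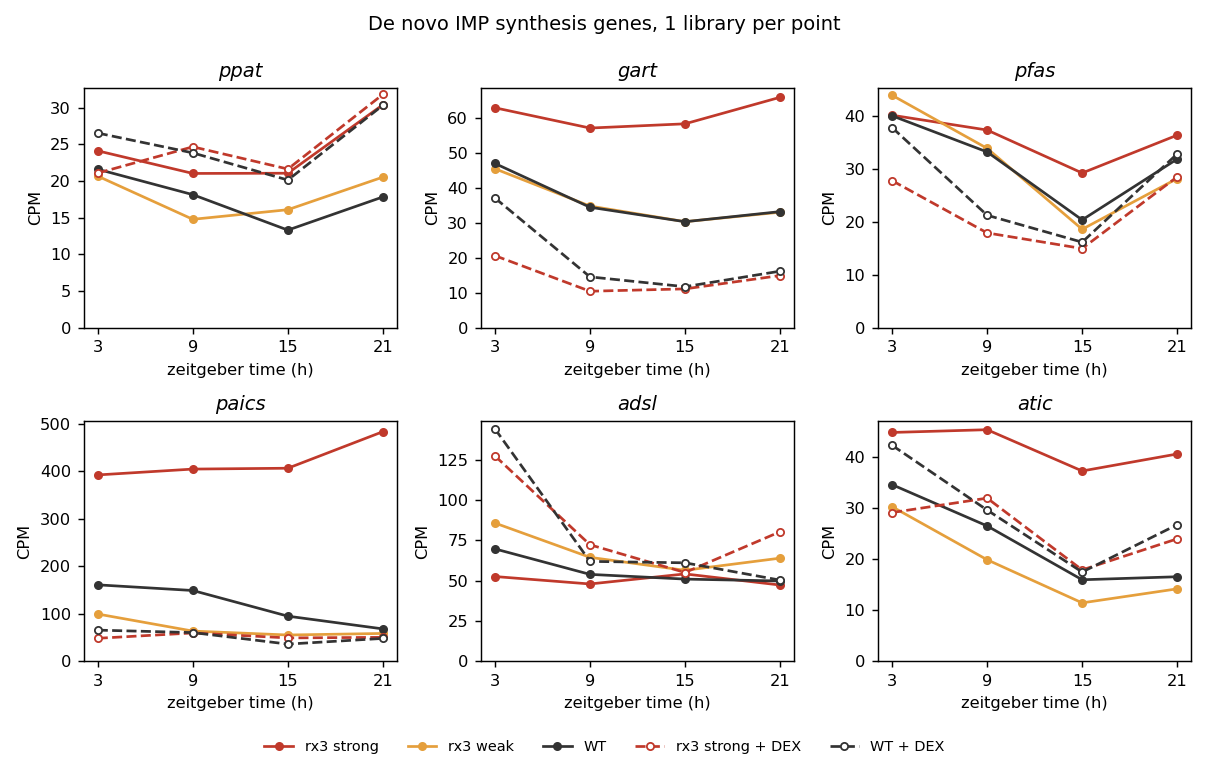
Level of the 6 IMP synthesis genes in each library (CPM) against zeitgeber time (hours), with 1 line per group; untreated groups are solid and DEX groups dashed, and the 2 sets were scaled separately. For *paics* the *rx3 strong* line runs at 391.9 to 483 CPM, above 55.2 to 161 CPM in *rx3 weak* and WT, whereas the 2 DEX lines run together at 36.0 to 65.4 CPM.

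With DEX, IMP synthesis genes did not pass the test between the genotypes. Of the 6 genes, 0 passed the test between *rx3 strong* + DEX and WT + DEX, and their median log2 fold change was -0.08. The gene *paics* had 48.3, 59.5, 49.0 and 50.3 CPM in *rx3 strong* + DEX, against 65.4, 60.3, 36.0 and 48.0 CPM in WT + DEX. The 2 groups overlapped, and the log2 fold change was 0.02 with a 95% interval of -0.32 to 0.35 (adjusted p = 0.973). For *gart*, the levels were 20.6, 10.4, 11.1 and 14.9 CPM in *rx3 strong* + DEX and 37.1, 14.5, 11.7 and 16.2 CPM in WT + DEX, lower in the mutant at 4 of 4 time points but short of the threshold (-0.38, adjusted p = 0.215). For *atic*, the log2 fold change was -0.13 with an interval of -0.45 to 0.18 (adjusted p = 0.692).

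The change of the genotype difference itself was tested as an interaction in the 16 libraries of the 2 genotypes with both treatments. Of 63 members, 6 passed, 3 in each direction, against a background of 2.31% of all genes (1.46% upward, 0.851% downward). The log2 fold change of *rx3 strong* over WT was lower with DEX by 1.92 ± 0.30 for *paics* (SE, adjusted p = 0.00471), and this call held without any single time point. For *gart* it was lower by 1.18 (adjusted p = 0.00646) and for *atic* by 1.07 (adjusted p = 0.0192). In both the sign changed, from 0.77 to -0.38 for *gart* and from 0.92 to -0.13 for *atic*, and neither value with DEX passed its own test. The *gart* call was lost without ZT9, where the value was -1.16, and the *atic* call without ZT9, ZT15 or ZT21, with values of -1.21, -0.97 and -0.93. The interaction was -0.50 for both *ppat* (adjusted p = 0.201) and *pfas* (adjusted p = 0.116), and 0.25 for *adsl* (adjusted p = 0.648). Since kit and DEX changed together per the labels, the interaction holds for the pair.

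The other 3 members with an interaction went the other way. The gene *adss*, an adenylosuccinate synthase at the entry to the adenine branch, had 57.6, 30.3, 20.7 and 39.5 CPM in *rx3 strong* + DEX and 33.5, 22.1, 15.3 and 22.1 CPM in WT + DEX. It was higher in the mutant at each time point (log2 fold change 0.63, adjusted p = 0.0159). Without DEX it had 64.7, 67.7, 62.5 and 80.8 CPM in *rx3 strong* and 88.5, 85.8, 63.2 and 82.9 CPM in WT, a log2 fold change of -0.21 that did not pass the test. The interaction was 0.81 (adjusted p = 0.015) and was lost without ZT3 (0.74) or ZT9 (0.82), and the DEX difference was lost without ZT3 (0.58) or ZT21 (0.58). The interaction of *ampd3a*, an AMP deaminase gene, was 0.71 (adjusted p = 0.0321), and that of *papss2a*, a PAPS synthase gene, was 0.59 (adjusted p = 0.0452). For *ampd3a* it was lost without ZT3, ZT15 or ZT21, with values of 0.62 to 0.79, and for *papss2a* without any 1 of the 4 time points, with values of 0.47 to 0.74.

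**Figure D3:**
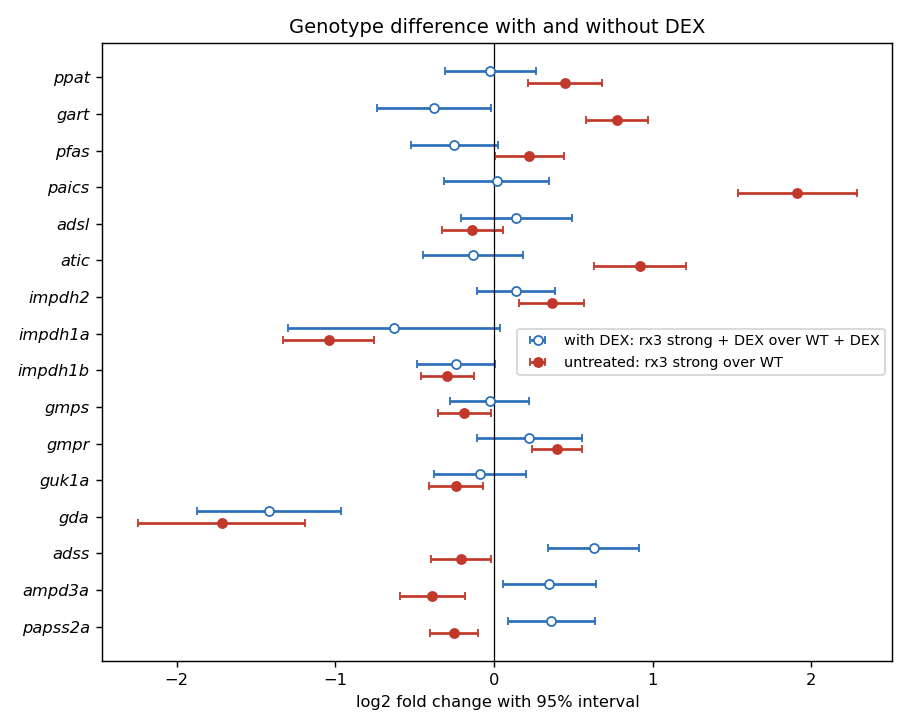
Log2 fold change with its 95% interval (horizontal axis) of 16 members, with DEX (open, *rx3 strong* + DEX over WT + DEX) above the untreated value (filled, *rx3 strong* over WT). The intervals with and without DEX are far apart for *paics* (0.02 and 1.91), *gart* (-0.38 and 0.77) and *atic* (-0.13 and 0.92), and close together for *gda* (-1.42 and -1.72).

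In the guanine branch, 4 of 7 genes fell and 2 rose in *rx3 strong*, and 4 fell and 1 rose in *rx3 weak*, each relative to WT. Some iridophore markers were lower as well. Of 6 listed, 3 were matched, and 2 of these (*pnp4a* and *gpnmb*) fell in both mutants. They also fell in *rx3 strong* + DEX relative to WT + DEX. The other, *ltk*, passed none of these tests. Its log2 fold change was -0.04 in *rx3 strong* (adjusted p = 0.861), -0.10 in *rx3 weak* (adjusted p = 0.602) and -0.15 with DEX (adjusted p = 0.694). Summed over all 3, the level was 85.74 to 108.5 CPM in *rx3 strong* and 67.72 to 95.3 CPM in *rx3 weak*, against 151.5 to 161.3 CPM in WT. With DEX it was 28.56 to 41.83 CPM in *rx3 strong* + DEX, against 63.16 to 92.05 CPM in WT + DEX. The part of iridophores in the guanine branch result was not tested. Across all roles, 13 of 63 members passed the test for *rx3 weak* against WT (5 higher, 8 lower), where the background was 14% of all genes (6.08% higher, 7.96% lower). These 2 comparisons share the WT libraries.

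The largest difference of a member from WT was that of *guk1b*, a guanylate kinase gene, which phosphorylates GMP. It had 0.117, 0.947, 0.955 and 1.04 CPM in *rx3 strong*, 4.22, 1.45, 4.22 and 2.57 CPM in *rx3 weak*, and 38.1, 34.0, 56.2 and 55.7 CPM in WT. The 3 groups did not overlap. The *rx3 strong* values rest on 2, 20, 19 and 18 counts. The log2 fold change over WT was -5.86 ± 0.27 in *rx3 strong* (SE; adjusted p = 8.35e-12) and -3.87 ± 0.22 in *rx3 weak* (SE; adjusted p = 2.61e-10), and the *rx3 strong* level was below that of *rx3 weak* by 1.99 on the log2 scale (adjusted p = 0.000501). The eye markers lay in the same order, with medians of 13.21 CPM in *rx3 strong*, 132.6 CPM in *rx3 weak* and 2310 CPM in WT. Their part in the *guk1b* difference was not tested. With DEX the gene had 0.846, 0.394, 1.18 and 0.692 CPM in *rx3 strong* + DEX and 32.1, 15.9, 57.1 and 26.2 CPM in WT + DEX (log2 fold change -5.37, adjusted p = 5.5e-08). Its paralog *guk1a* had 33.8, 32.9, 34.1 and 32.9 CPM in *rx3 strong* and 43.1, 36.8, 37.4 and 40.9 CPM in WT (-0.24, adjusted p = 0.0469), and this call was lost without ZT3, ZT9 or ZT21, with values of -0.26 to -0.20.

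IMP dehydrogenase takes IMP into the guanine branch, and its 3 genes did not move together. The gene *impdh1a* had 13.1, 13.4, 13.0 and 13.9 CPM in *rx3 strong*, 14.8, 13.8, 15.9 and 14.2 CPM in *rx3 weak*, and 24.5, 22.5, 23.6 and 41.9 CPM in WT. Both mutants lay below every WT library, with log2 fold changes of -1.04 in *rx3 strong* (adjusted p = 1.73e-05) and -0.90 in *rx3 weak* (adjusted p = 9.94e-05). The *impdh1b* gene was lower in *rx3 strong* by 0.29 (adjusted p = 0.0132; lost without ZT9, at -0.30) and in *rx3 weak* by 0.38 (adjusted p = 0.00261). In contrast, *impdh2* was higher in *rx3 strong*, with 43.7, 43.1, 46.1 and 46.5 CPM against 36.2, 32.9, 32.4 and 38.5 CPM in WT (log2 fold change 0.36, adjusted p = 0.0129), and the call was lost without ZT9 (0.36). In *rx3 weak*, its log2 fold change was 0.06 (adjusted p = 0.766).

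For *gmps*, which encodes GMP synthase, the log2 fold change was -0.19 in *rx3 strong* (adjusted p = 0.111) and -0.31 in *rx3 weak* (adjusted p = 0.0108), and the *rx3 weak* call was lost without ZT9 (-0.26). The gene *gmpr*, whose enzyme returns GMP to IMP, was higher in both mutants, by 0.40 in *rx3 strong* (adjusted p = 0.000876) and 0.31 in *rx3 weak* (adjusted p = 0.00886). The *rx3 weak* call was lost without ZT3 (0.28). With DEX, *guk1b* was the 1 gene of the 7 that passed the test between the genotypes.

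**Figure D4:**
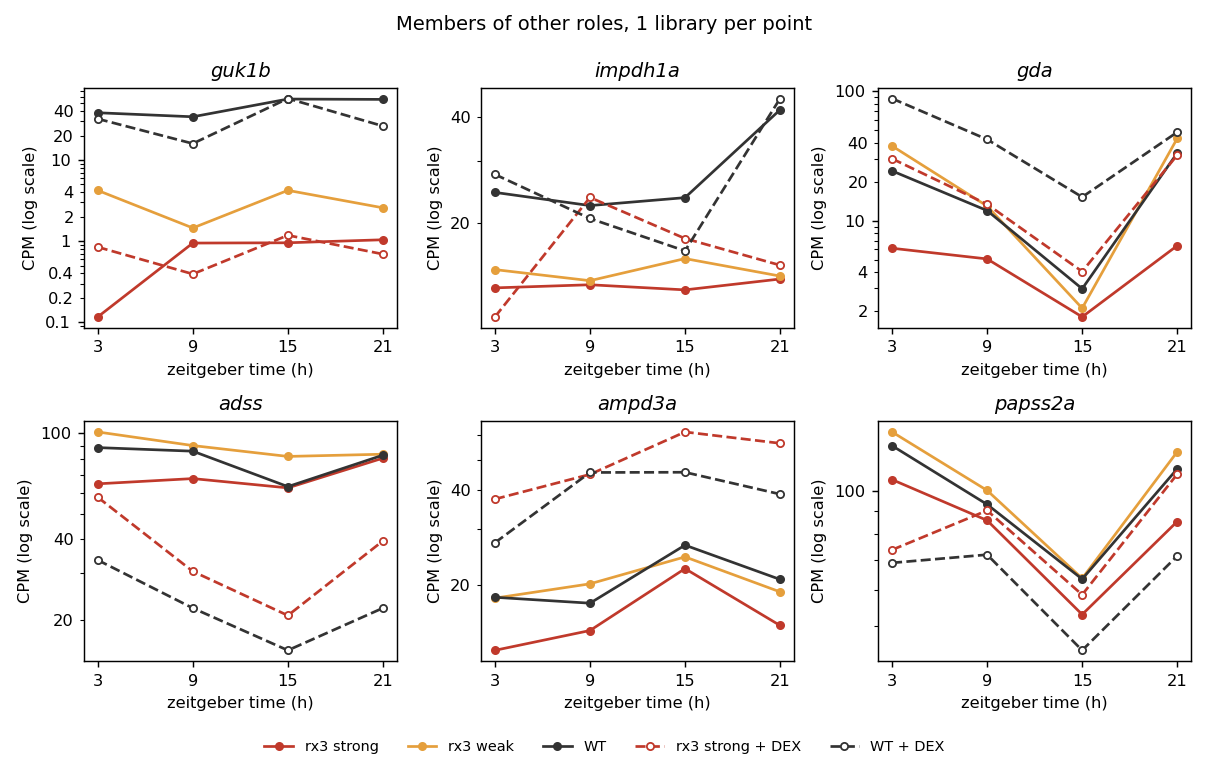
Level of 6 members of other roles in each library (CPM, log scale) against zeitgeber time (hours), with the groups drawn as solid lines without DEX and dashed lines with DEX. For *guk1b* untreated *rx3 strong* and *rx3 weak* reach at most 1.04 and 4.22 CPM, against at least 34.0 CPM in WT, for *gda* the *rx3 strong* lines run below those of WT with and without DEX, and for *adss* the *rx3 strong* + DEX line runs above that of WT + DEX.

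Guanine deaminase, which turns guanine into xanthine, differed in *rx3 strong* alone among the untreated mutants, and it did so with DEX as well. The gene *gda* had 6.13, 5.07, 1.81 and 6.41 CPM in *rx3 strong*, 37.8, 13.0, 2.11 and 43.1 CPM in *rx3 weak*, and 24.2, 12.0, 2.98 and 33.3 CPM in WT. In all 3 groups the lowest library was that of ZT15, and *rx3 strong* was below WT at 4 of 4 time points (log2 fold change -1.72, adjusted p = 5.95e-05). The direct test against *rx3 weak* gave -2.01 (adjusted p = 1.58e-05), and *rx3 weak* over WT gave 0.29 (adjusted p = 0.439). With DEX the levels were 30.1, 13.4, 4.05 and 32.1 CPM in *rx3 strong* + DEX and 87.8, 42.4, 15.2 and 48.2 CPM in WT + DEX, again lower in the mutant at each time point (-1.42, adjusted p = 0.00236). The interaction was 0.25 with a 95% interval of -0.47 to 0.96.

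Of the other 6 tested genes of degradation, 0 passed the test between *rx3 strong* and WT, with log2 fold changes of -0.27 for zgc:103559, -0.20 for *urah*, -0.04 for both *xdh* and *uox*, 0.11 for *urad* and 0.12 for *allc*. The gene *uox* encodes urate oxidase, and *urah*, *urad* and *allc* encode enzymes that act after it. Xanthine dehydrogenase, which makes urate, rose in *rx3 weak*: *xdh* had 76.6, 73.4, 67.9 and 70.0 CPM in *rx3 weak*, above each of the 41.7, 51.6, 50.1 and 59.2 CPM in WT (log2 fold change 0.52, adjusted p = 0.000535). It was lower in *rx3 strong* than in *rx3 weak* (-0.56, adjusted p = 0.000302). The unfiltered levels of CABZ01117575.1 were 0.233 to 0.452 CPM in *rx3 strong* and 0.0531 to 0.594 CPM in WT.

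In salvage, genes of the hypoxanthine phosphoribosyltransferase family diverged. The gene *hprt1l* had 10.5, 11.2, 9.95 and 9.53 CPM in *rx3 strong*, 12.0, 10.2, 10.3 and 10.1 CPM in *rx3 weak*, and 18.7, 15.7, 15.9 and 19.2 CPM in WT. Both mutants lay below all WT libraries, by 0.75 in *rx3 strong* (adjusted p = 6.85e-05) and 0.70 in *rx3 weak* (adjusted p = 0.000155). A gene named PRTFDC1 (2 of 2) was low in all groups and also fell in both, by 1.32 in *rx3 strong* (adjusted p = 0.00148) and 1.55 in *rx3 weak* (adjusted p = 0.000447), while *prtfdc1* rose in *rx3 strong* by 0.34 (adjusted p = 0.0217). The *prtfdc1* call was lost without ZT9 (0.28) or ZT15 (0.27). The widely used *hprt1* had 60.8, 54.7, 52.1 and 52.5 CPM in *rx3 strong* and 65.3, 48.9, 50.2 and 65.1 CPM in WT and did not pass the test. Only uniquely mapped reads were counted, so a read that fits 2 copies of a gene equally well is counted for neither. Whether this lowered the counts of genes such as the 2 named *adkb* was not tested.

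Among the AMP deaminases, which return AMP to IMP, 3 of the 7 deaminase genes fell and 1 rose in *rx3 strong*. The gene that rose, AMPD2 (2 of 2), had a log2 fold change of 0.26 over WT (adjusted p = 0.0217). Over *rx3 weak* it was 0.24 (adjusted p = 0.0474). The gene *ampd1*, the skeletal muscle form in mammals, had 352, 358, 328 and 342 CPM in *rx3 strong*, 449, 453, 464 and 512 CPM in *rx3 weak*, and 419, 440, 400 and 394 CPM in WT. All *rx3 strong* libraries were below all other untreated libraries (log2 fold change over WT -0.26, adjusted p = 0.0163). The summed muscle markers were higher in *rx3 strong* than in WT, and the part of muscle in the *ampd1* difference was not tested. The call against WT was lost without ZT3 (-0.26) or ZT9 (-0.25). Against *rx3 weak* the value was -0.45 (adjusted p = 0.000335). In this comparison 21 of 63 members passed, 6 higher and 15 lower in *rx3 strong*, against a background of 12.1% of all genes (5.06% higher, 7.07% lower). This comparison and that against WT share the *rx3 strong* libraries. The higher genes included *paics*, *gart* and *atic*, and the lower ones *gda*, *guk1b*, *ampd1*, *ampd3a* and *ampd3b*. The 3 adenylosuccinate synthases were all lower in *rx3 strong* than in *rx3 weak*: *adssl1* by 0.55 (adjusted p = 0.00059), *adss* by 0.37 (adjusted p = 0.00977) and *adssl* by 0.23 (adjusted p = 0.0315). The *adss* call was lost without ZT3 (-0.29) or ZT9 (-0.37), and the *adssl* call without any 1 of the 4 time points, with values of -0.26 to -0.22. Relative to WT, *adssl1* rose in *rx3 weak*, at 1.06 to 1.39 times the WT level of the same time point, and passed the test. So did *enpp1*, a nucleotide hydrolase gene, at 1.07 to 1.41 times the WT level, although the libraries of these groups overlapped. In *rx3 strong* against WT, *adssl1* (-0.21, adjusted p = 0.128) and *adss* (-0.21, adjusted p = 0.121) did not pass. There, *adssl* did (-0.23, adjusted p = 0.0231).

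Adenylate kinases interconvert adenine nucleotides. The 8 genes placed in this role included ENSDARG00000035573, which carries the symbol TAF9. Of the 8, 1 passed the test between *rx3 strong* and WT. This was *ak4*, a mitochondrial form in mammals, with 44.9, 40.0, 43.1 and 42.1 CPM in *rx3 strong* and 31.1, 33.3, 31.1 and 28.6 CPM in WT (log2 fold change 0.46, adjusted p = 0.000984). Per transcript length, *ak1* was the most abundant member in WT, at a median of 2119 TPM, the length-scaled counterpart of CPM, followed by *ampd1* at 258.7 TPM and *adssl1* at 180.3 TPM, whereas *paics* stood at 89.98 TPM and *ppat* at 16.67 TPM. The PAPS synthase genes *papss1* and *papss2a* fell in *rx3 strong*, *papss1* by 0.52 (adjusted p = 0.000239) and *papss2a* by 0.25 (adjusted p = 0.0187), and *papss1* also fell in *rx3 weak*, by 0.36 (adjusted p = 0.00629). The *papss2a* call was lost without ZT3 (-0.25) or ZT21 (-0.21).

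With DEX, 4 of 64 members passed the test between the genotypes, against a background of 7.91% of all genes (3.48% higher, 4.43% lower). These were *guk1b* and *gda*, which were lower in *rx3 strong* + DEX and had also been lower without DEX, and *adss* and *papss2b*, which were higher. The *papss2b* difference was 0.48 (adjusted p = 0.0428) and was lost without ZT3, ZT9 or ZT15, with values of 0.40 to 0.51. Fewer residual degrees of freedom were left in this fit (3, against 6 without DEX).

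The time of day was tested next, as a 24 h cosine curve shared by the 3 untreated genotypes. In this test and in that of the DEX libraries, the genotypes stand in for replicates of each time point. The time points covered a single span of 24 h. A daily rhythm therefore cannot be told apart from a difference between single collections. Of 63 members, 21 had an adjusted p under 0.05, against a background of 17% of all genes. Their fitted peaks lay between ZT0 and ZT6 in 15 of the 21 (71.4%), and 39.8% of all rhythmic genes peaked in the same 6 h. In the shared curve, genes of different roles had this morning peak. They included *atic* (ZT4.63), *pfas* (ZT3.52), *gart* (ZT2.72) and *ppat* (ZT0.41) of IMP synthesis. Others were *adssl* (ZT4.45) of the adenine branch, *adka* (ZT4.73), an adenosine kinase gene, and *gda* (ZT1.16). The shared curve gives all 3 genotypes the same peak time. Fitted to each genotype alone, *ppat* peaked at ZT22.3 in *rx3 strong*, ZT23.4 in *rx3 weak* and ZT3.21 in WT. In *rx3 strong* alone, the peak of *gart* was at ZT22.9 and that of *adka* at ZT7.64. The largest difference between peak and trough was that of *gda*, at 2.99 on the log2 scale (adjusted p = 0.00286).

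A few members peaked at other times. The *impdh1b* gene had 52.8, 69.0, 68.9 and 41.7 CPM in *rx3 strong*, 46.6, 58.6, 77.2 and 39.1 CPM in *rx3 weak*, and 63.5, 83.6, 94.5 and 47.0 CPM in WT, with the highest level at ZT9 or ZT15. Its fitted peak was at ZT11.6 (peak to trough difference 0.91, adjusted p = 0.000545). The AMP deaminase gene *ampd3b* had 15.2, 19.7, 29.5 and 14.6 CPM in *rx3 strong*, 19.2, 31.2, 57.0 and 24.4 CPM in *rx3 weak*, and 17.9, 32.5, 35.8 and 17.4 CPM in WT, with a fitted peak at ZT13.3. Its paralog *ampd3a* peaked at ZT15.4. The adenosine deaminase gene *ada* peaked at ZT23.8, with 196, 172, 162 and 226 CPM in *rx3 strong* and 194, 171, 149 and 251 CPM in WT.

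**Figure D5:**
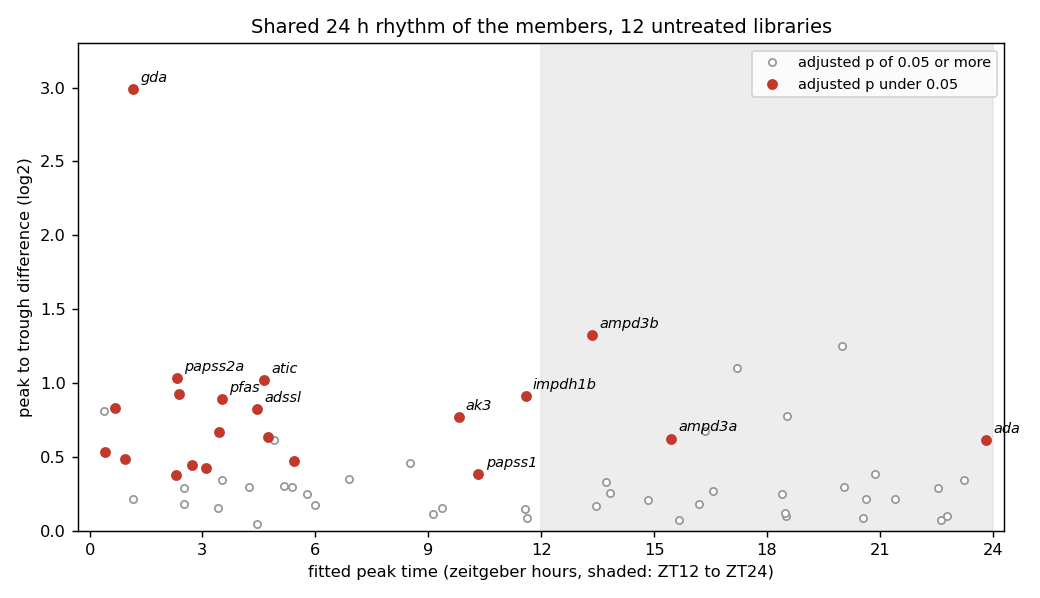
Fitted peak time (hours after lights on, lights off at ZT12 and shaded) against the peak to trough difference (log2) of the members in the 12 untreated libraries, with 1 point per gene; filled points had an adjusted p under 0.05. Most filled points lie at ZT0 to ZT6 (15 of 21), *gda* stands highest at 2.99, and *ampd3b* and *impdh1b* are the highest filled points outside that window.

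The fitted daily swing had a lower median in *rx3 strong* than in WT over the members as a whole and in several roles. Fitted to each genotype alone on variance stabilized values, the median peak to trough difference of 60 members was 0.27 in *rx3 strong*, 0.40 in *rx3 weak* and 0.43 in WT. For the 9 fitted genes of salvage it was 0.22 in *rx3 strong* and 0.45 in WT, and for the 7 of degradation 0.277 in *rx3 strong* and 0.495 in WT. In contrast, for the 7 of the guanine branch it was 0.33 in *rx3 strong* and 0.25 in WT. For the 3 PAPS synthases it was 0.54 in *rx3 strong* and 0.34 in WT, and for the 8 adenylate kinases 0.243 in both. For the 6 IMP synthesis genes it was 0.28 in *rx3 strong*, 0.69 in *rx3 weak* and 0.75 in WT, while over all genes it was 0.31, 0.31 and 0.32 in the same order. For *paics* it was 0.26 in *rx3 strong*, 0.82 in *rx3 weak* and 1.34 in WT. For *atic* it was 0.29, 1.29 and 1.18 in the same order, and for *adsl* 0.04, 0.57 and 0.45. These are descriptions of 4 libraries per curve. The test of a different rhythm in *rx3 strong* and WT called 0 of 22078 genes with edgeR, and 0 also with limma on the deposited log2 values. At an unadjusted p under 0.05 this edgeR test, fitted across all genes, called 2.85% of them. Among the 63 members it called 2 (3.17%), *paics* and *atic*, a share near that of all genes. Tested on simulated counts, it found 2.5% of the genes given an added swing of 1 on the log2 scale in *rx3 strong*, so rhythm differences of that size were mostly not detectable at this depth and number of time points.

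A model choice after the study's method picks by the Bayesian information criterion among models with shared, separate or no rhythm in each genotype. It placed 27 of the 65 members (41.5%) in models where WT and *rx3 weak* have a rhythm and *rx3 strong* has none or its own. These models held 18.9% of all genes, but 21.5% of the members were left unassigned, against 51.7% of all genes. Beside the threshold on the model weight, genes with a mean variance stabilized value under 6 were left unassigned here, among them 5 members. Tested on simulated data with 4 time points, a median of 34% of genes were placed in the model they were made from, and 10% of those made without a rhythm were placed in the model without one, so these counts are descriptions. The gene *paics* was placed among those without a rhythm in *rx3 strong*, as was *adsl*, and *gart*, *pfas* and *atic* among those with a different rhythm. The remaining IMP synthesis gene, *ppat*, was placed outside these models. Its model gives *rx3 weak* and *rx3 strong* a shared rhythm other than that of WT. A further 8 members, among them *impdh1b* and *adssl*, were placed in the model with 1 rhythm in all 3 genotypes, which held 12.3% of the members and 7.28% of all genes. With DEX, 18 of the 27 were placed in models with a rhythm in both genotypes, 10 of them in that with the same rhythm. The numbers for all genes were 2810 and 1491 of the 6072 placed in the same untreated models. These shares depend on how many genes were assigned. With DEX, 32.3% of the 65 members were left unassigned, against 60.8% of all genes.

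Across the 8 DEX libraries, 10 of 64 members had a shared rhythm, against a background of 5.54% of all genes, and 7 of the 10 peaked between ZT0 and ZT6, as did 34.8% of all rhythmic genes. The gene *gda* again had the largest swing (2.76, adjusted p = 0.0235), a call that was lost without ZT15 (1.60). The gene *pfas* had 27.8, 17.9, 14.98 and 28.5 CPM in *rx3 strong* + DEX and 37.8, 21.3, 16.2 and 32.9 CPM in WT + DEX, the lowest in both at ZT15 (fitted peak ZT0.903, adjusted p = 0.0198; lost without ZT3 or ZT15). The median peak to trough difference of the IMP synthesis genes was 0.88 in *rx3 strong* + DEX and 1.27 in WT + DEX. Without ZT3, 3 members were called rhythmic with DEX, and with limma on the deposited log2 values 1. At ZT3 the summed muscle markers reached 43240 CPM in *rx3 strong* + DEX and 48800 CPM in WT + DEX, the highest of their groups. The *ak1* and *ampd1* genes moved with them, *ak1* with 2576, 1375, 1112 and 1288 CPM in *rx3 strong* + DEX and 3140, 1254, 1108 and 823 CPM in WT + DEX. Neither gene passed the rhythm test.

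The study's purine list holds 43 further genes, which are also listed under another pathway and are not among the 65. Of these 43, 15 passed the test between *rx3 strong* and WT, 9 higher and 6 lower. The background was 19.2% of all genes (8.66% higher, 10.5% lower), and among the members 23 of 63 passed. The gene *prps1a*, which encodes a synthetase of phosphoribosyl pyrophosphate, the substrate of *ppat*, had a log2 fold change of 0.58 in *rx3 strong* (adjusted p = 0.00118), -0.07 in *rx3 weak* (adjusted p = 0.774) and -0.13 with DEX (adjusted p = 0.614). Its interaction was -0.73 (adjusted p = 0.0156). The paralog *prps1b* passed neither test, with 0.06 in *rx3 strong* over WT (adjusted p = 0.781) and an interaction of -0.14 (adjusted p = 0.816). The nucleoside diphosphate kinase gene *nme2a*, on the other hand, was lower in *rx3 strong* by 4.72 (adjusted p = 2.12e-09) and in *rx3 weak* by 3.60 (adjusted p = 1.92e-08).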

How the data were processed

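Whole-larva RNA of 20 libraries was sequenced by the authors, aligned to Zv9 with STAR and counted on Ensembl genes with HTSeq; the deposited counts are not normalized, and whether strand was used is not given in the sources used here. The authors also deposited log2 values (DESeq2 size factors and variance stabilizing transformation), used here as an alternative. All sample columns were matched to their labels (0 unused).

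Counts were tested with edgeR 4.0.16 (R 4.3.3; TMM factors, filterByExpr, glmQLFit) with genotype and time point as factors, in the 12 untreated, the 8 DEX or, for the interaction, 16 libraries; rhythms were cosine terms of 24 h. DESeq2 1.42.0 and limma 3.58.1 gave alternatives. TPM used the deposited gene lengths. Tested on simulated counts with a log2 change of 1, the fits recovered 98.5% of changed genes for *rx3 strong* against WT, 87.5% with DEX, 29.5% for the interaction, 98.5% for the untreated rhythm and 35.5% for the DEX rhythm. The rhythm models are descriptive with 4 time points.

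Members, roles and marker lists were chosen with earlier results of these data known. Named were all members of IMP synthesis, the guanine branch and urate degradation, up to 8 called members per direction and comparison, the 8 with the smallest p in each rhythm test and the member that failed every filter; *hprt1* and *ak1* were named after their values were seen. No naming rule covered the 43 further purine genes, from which *prps1a*, *prps1b* and *nme2a* were named. Labels give no replicate numbers, and the time point paired the libraries. Promoter motifs were not analysed here.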

Additional observations from a re-analysis of the deposited data

Results flagged for a closer look

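In 11 of 200 sets of 4 libraries (5.5%; chance gives about 1 in 20), 1 library of a named member stood apart from the other 3 of its group. As each library is a different time point, a daily rhythm can set a library apart too, and this was not tested. At ZT21, *paics* had 483 CPM in *rx3 strong* (others 391.9 to 406), *adssl1* 263 CPM in *rx3 strong* (218 to 225), *gmps* 48.6 CPM in *rx3 strong* (37.0 to 38.5) and *impdh1a* 41.9 CPM in WT (22.5 to 24.5). In *rx3 strong*, *guk1b* had 0.117 CPM at ZT3 (0.947 to 1.04) and *uox* 74.6 CPM at ZT9 (63.4 to 64.9). The gene *hprt1l* had 12.0 CPM at ZT3 in *rx3 weak* (10.1 to 10.3). With DEX, *urah* had 19.3 CPM at ZT15 in *rx3 strong* + DEX (32.8 to 34.1) and 16.02 CPM at ZT21 in WT + DEX (23.2 to 23.8). The gene *papss2a* had 44.1 CPM at ZT15 in WT + DEX (69.0 to 71.99), and *adsl* 144 CPM at ZT3 in WT + DEX (50.4 to 62.0), the shallowest library.

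The genotype difference with DEX, minus that without, passed the interaction test of edgeR (adjusted p, Benjamini-Hochberg) in 6 members. It was -1.92 for *paics* (adjusted p = 0.00471), -1.18 for *gart* (0.00646), -1.07 for *atic* (0.0192), 0.81 for *adss* (0.015), 0.71 for *ampd3a* (0.0321) and 0.59 for *papss2a* (0.0452), all on the log2 scale.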

How the results depend on the processing

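Without the time point factor (no replicate block), fewer members passed: 10 for *rx3 strong* against WT, 5 for *rx3 weak* against WT, 7 for *rx3 strong* against *rx3 weak*, 1 with DEX and 1 for the interaction, where *paics* held. Leaving out 1 time point gave 14 to 21, 10 to 12, 12 to 16, 2 to 4 and 2 to 4 members in the same order, with fewer libraries in each fit. It gave 14 to 21 members for the untreated rhythm and 3 to 19 for the DEX rhythm. The untreated rhythm was called in 7 members without the *rx3 weak* libraries, 8 without the WT libraries and 17 without the *rx3 strong* libraries. With limma on the deposited log2 values, the DEX rhythm was called in 1 member, and the cause was not tested. Without the filter on low counts, the test of a different rhythm called 1 member and otherwise 0. In the choice among rhythm models, 21.5% of members and 51.7% of all genes were unassigned, but 53.8% and 76.9% with a stricter model weight, and 13.8% and 20.5% on log2 CPM with no minimum mean, where both choices changed. On the deposited log2 values 24 members, not 27, were placed in the models with a rhythm in WT and *rx3 weak* and none or its own in *rx3 strong*. Of these, 6, not 10, had the same rhythm in both genotypes with DEX. The other settings of size factors, tool, filter and libraries kept each count within 1.5 times its value. No fold change of a member called in the main fit of its comparison turned its sign under any setting run. The signs of named fold changes that were not called were not checked across settings. With 1 library per group and time point, kit and DEX changing together per the labels, and low recovery of interactions and of rhythm differences in simulation, a member that missed the threshold is not shown to be unchanged.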
